A study of Mus musculus with 12 samples.

Results

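Activator protein-1 (AP-1) family transcription factors were followed through 4 groups of splenic CD4+ T cells. The family was taken as 10 genes chosen by name, Fos, Fosb, Fosl1, Fosl2, Jun, Junb, Jund, Batf, Batf3 and Maff, out of 55414 gene records in the count table, and all 10 were found by their symbol. They were chosen because Fos and Fosb were among the genes with the lowest values in LIP against CTL on day 0, so the day 0 differences of the members between LIP and CTL are given as a description, and the counts of calls in that contrast support nothing. The cells came from wild-type male BALB/c mice aged 18 weeks that had silk ligatures tied around upper molars (ligature-induced periodontitis, LIP) or anaesthesia without a ligature (control, CTL). CD4+ T cells were purified from the spleen by negative selection and were collected at once (day 0), or after 2 days of culture with IL-2 and antibodies to TCRβ and CD28 (day 2). Each of the 4 groups, CTL day 0, LIP day 0, CTL day 2 and LIP day 2, held 3 libraries, named here by the number in their label. The treatment labels of 4 day 2 libraries, CTL 93, CTL 97, LIP 96 and LIP 97, named anti-CD29 or anti-CD30 in place of anti-CD28.

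AP-1 is a pair of basic leucine zipper proteins bound to DNA. Fos proteins form no stable pairs with themselves and pair chiefly with Jun proteins, Jun proteins pair with each other as well, and Batf proteins pair with Jun proteins and bind DNA beside IRF4 in T cells. Fos, Fosb and Jun are immediate early genes, which are switched on within minutes of a stimulus without new protein synthesis and are soon switched off. In T cells the antigen receptor reaches them through protein kinase C theta, Ras and the MAP kinases, and AP-1 then binds next to NFAT at cytokine genes.

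Library totals ranged from 6249018 to 7845676 counts on day 0 and from 8691699 to 12866718 counts on day 2. Levels are given as CPM, counts scaled to a common library size with TMM factors over all 12 libraries, and 3 counts, taken as the floor, stood for 0.101 to 0.137 CPM when summed over the 3 libraries of a group. The 6 T cell markers, Cd4 and Cd3e among them, summed to between 1827 and 2906 CPM in the 12 libraries, while S100a8 and S100a9, markers of neutrophils, had no count in any of them. Among the day 0 libraries CTL 94 stood apart from the other two controls in most AP-1 members, and on day 2 LIP 90 stood apart from LIP 96 and LIP 97, with the lowest Fosl2 and B cell marker values of its group. The counts of calls between LIP and CTL, and the differences of some members, are given with and without CTL 94 or LIP 90. Other values rest on all libraries of their group.

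Fos and Fosb are shown with the DNA in front of their start sites because they had the largest day 0 differences of the family. Letters were searched on both strands in 500 bases (400 before to 100 after the annotated start) of the 10 members and of 21627 protein-coding genes. The CArG box, the binding motif of serum response factor, was present in 2 of the 10 members, Fos and Fosb, and in 2.52% of all promoters. The cyclic AMP response element TGACGTCA was found in Jund and Maff and in 2.76% of all promoters, and its core TGACG in every member other than Batf3 and in 29.6% of all promoters. The AP-1 site TGANTCA was in none of the 10 windows and in 11.6% of all promoters. Every full element also counts as a core, and a match is a description of the letters only. The 300 bases at positions -340 to -41 from the start, on the strand of the gene in GRCm39, are printed 5′ to 3′ with CArG boxes and TGACG cores (CGTCA on the other strand) in capitals, for Fos at chr12:85520318-85520617 (plus strand) and for Fosb at chr7:19044017-19044316 (minus strand).
Fos: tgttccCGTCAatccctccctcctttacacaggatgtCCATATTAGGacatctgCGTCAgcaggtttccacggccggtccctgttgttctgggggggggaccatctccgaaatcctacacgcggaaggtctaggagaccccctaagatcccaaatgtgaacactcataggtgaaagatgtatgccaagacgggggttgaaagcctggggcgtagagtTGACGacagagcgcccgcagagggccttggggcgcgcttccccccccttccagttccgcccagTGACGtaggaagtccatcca
Fosb: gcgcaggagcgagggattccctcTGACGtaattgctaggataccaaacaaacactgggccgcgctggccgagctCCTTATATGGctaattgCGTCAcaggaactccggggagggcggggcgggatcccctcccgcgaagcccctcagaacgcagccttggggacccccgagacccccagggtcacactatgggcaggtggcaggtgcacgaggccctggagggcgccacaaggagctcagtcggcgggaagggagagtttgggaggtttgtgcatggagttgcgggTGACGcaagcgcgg
In both stretches a TGACG core on the other strand followed the CArG box, starting at -286 in Fos and -249 in Fosb. Fos lay at chr12:85520658-85524047 and Fosb at chr7:19036621-19043976, and neither overlapped another annotated gene. Junb shared bases with Prdx2 and Fosl1 with Ccdc85b on the opposite strand, Jun overlapped the antisense RNA Junos, and Fosl2, Jund, Batf3 and Maff overlapped antisense non-coding RNAs. The strand setting of the counting is not given in the sources used here, so reads from these partners cannot be told apart from reads of the members.

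In freshly isolated cells, 8 of the 10 members passed the filter on low counts, and Fosl1 and Batf3 did not. Fos, the founding member of the family, stood at 163 CPM in CTL 88, 130.1 CPM in CTL 89 and 50.8 CPM in CTL 94, against 34.1, 26.0 and 31.7 CPM in LIP 92, LIP 93 and LIP 94. Fosb was at 196 CPM, 121 CPM and 64.2 CPM in the same CTL libraries and at 25.2 CPM, 27.5 CPM and 22.1 CPM in the LIP libraries. Both genes were lower in every LIP library than in every CTL library, and CTL 94 was the nearest control to the LIP values. The difference of LIP from CTL was -1.89 for Fos (SE 0.32) and -2.34 for Fosb (SE 0.31) on the log2 scale, or 3.72-fold and 5.06-fold. In bulk RNA, fewer cells that express a gene and less RNA of that gene in each cell cannot be told apart.

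Jun, the partner of the Fos proteins, measured 290 CPM in CTL 88, 317 CPM in CTL 89 and 161 CPM in CTL 94, against 125 CPM, 98.3 CPM and 92.4 CPM in LIP 92, LIP 93 and LIP 94, a log2 difference of -1.28 (SE 0.20). Its groups did not overlap either. Junb, a Jun protein with weaker activating strength, ranged from 152 to 438 CPM in CTL and from 164 to 232 CPM in LIP, and its lowest value of all 6 libraries was that of CTL 94. Jund, the most steadily expressed Jun gene, ranged from 90.6 to 143 CPM in CTL and from 73.0 to 90.9 CPM in LIP. Fosl2, a Fos gene that is slower to appear, ranged from 25.5 to 54.0 CPM in CTL and from 23.7 to 32.9 CPM in LIP. Maff, a small Maf protein that lacks an activating domain, ranged from 1.84 to 8.72 CPM in CTL and from 1.47 to 2.89 CPM in LIP. In Junb, Jund, Fosl2 and Maff the groups overlapped, with log2 differences of -0.77 (SE 0.28), -0.52 (SE 0.14), -0.64 (SE 0.23) and -1.16 (SE 0.48). Batf, which is expressed in effector T cells, ranged from 11.3 to 17.1 CPM in CTL and from 9.62 to 17.1 CPM in LIP, a log2 difference of 0.00 (SE 0.22).

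Over the 8 members that passed, 3 (Fos, Fosb and Jun) had an adjusted p under 0.05 by edgeR's quasi-likelihood test and none was higher in LIP. Of all 14064 genes tested, 52 were called lower in LIP, which is 0.37%. Every LIP library lay below every CTL library in 3 members and in 9.85% of all genes. The members were chosen by this contrast, so nothing is read from these counts. Without CTL 94, 7 of the 8 members were called lower (Batf was not), beside 2.8% of all genes, and the log2 difference was -2.25 for Fos (SE 0.12), -2.66 for Fosb (SE 0.17), -1.53 for Jun (SE 0.10) and -1.11 for Junb (SE 0.12). CTL 94 is the only control whose number is shared with a day 0 LIP library. Between CTL 94 and LIP 94, Fos was at 50.8 and 31.7 CPM, and Junb at 152 and 168 CPM. With CTL 94 left out, no number is in both groups, so number and group cannot be told apart. Without CTL 88 the differences were smaller, at -1.565 for Fos, -1.89 for Fosb, -1.19 for Jun, -0.49 for Junb and -0.575 for Maff. The count was 1 without CTL 88, 2 without LIP 92, 3 without CTL 89 and 0 without either LIP 93 or LIP 94. Without LIP 93 the differences of Fos, Fosb and Jun were still -1.79, -2.41 and -1.23, without LIP 94 they were -1.92, -2.26 and -1.19, and the calls over all genes fell from 60 to 13 and 15.

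**Figure D1:**
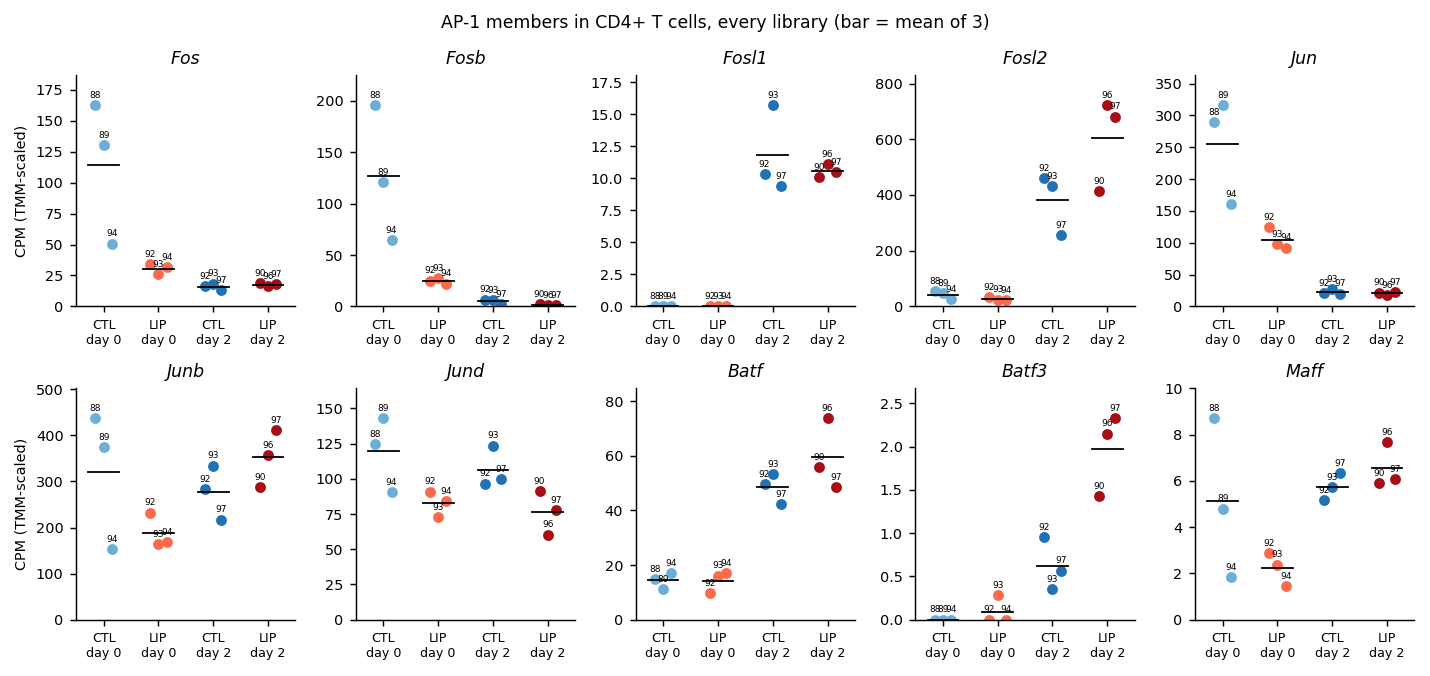
CPM of the 10 AP-1 members in each library (points, numbered by library) for CTL and LIP on day 0 and day 2, on a linear axis from 0, with a bar at the mean of 3 libraries. Fos, Fosb and Jun are highest in CTL on day 0, where library 94 is the lowest of its group, and Fosl2, Batf, Fosl1 and Batf3 are highest on day 2.

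Other genes were read beside them on day 0. The 16 other immediate early genes, among them Egr1, Nr4a1, Dusp1 and Klf6, summed to 1968 CPM in CTL 88, 1867 CPM in CTL 89 and 1492 CPM in CTL 94, against 1528, 1329 and 1396 CPM in LIP 92, LIP 93 and LIP 94. As with the AP-1 genes, CTL 94 lay near the LIP libraries. Of the 14 that were tested, all had a log2 difference below 0, 0 were called by edgeR and 7 were lower at an unadjusted p of 0.05, beside 7.2% of all genes, with a median of -0.24 beside 0.01 over all genes. Nr4a1, an orphan nuclear receptor induced by the antigen receptor, was at 33.8 ± 14.0 CPM in CTL and 13.9 ± 1.74 CPM in LIP (SD, n = 3). Dusp1, a phosphatase that switches off MAP kinases, was at 148 ± 60.9 CPM and 71.3 ± 11.5 CPM.

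The 18 heat shock genes, which encode chaperones, summed to 4346, 4411 and 4610 CPM in CTL 88, CTL 89 and CTL 94 and to 2272, 2238 and 2393 CPM in LIP 92, LIP 93 and LIP 94. Here CTL 94 was the highest library, unlike in Fos, Fosb, Jun and Junb, where it was the lowest control. Of the 16 heat shock genes tested, 13 were called lower in LIP and 0 higher, beside 0.37% of all genes called lower, and the median log2 difference was -0.77. This list and that of the other immediate early genes were chosen with earlier results of these data known. Nothing is therefore read from their day 0 counts. The summed markers of other cells were low beside those of T cells, at 1.32 to 3.68 CPM for 7 B cell genes. The 8 myeloid genes summed to 4.96, 4.69 and 10.6 CPM in CTL 88, CTL 89 and CTL 94 and to 6.19, 9.12 and 12.3 CPM in LIP 92, LIP 93 and LIP 94. The 4 NK cell genes summed to 8.87, 5.29 and 12.5 CPM in the CTL libraries and to 11.0, 12.5 and 14.8 CPM in the LIP libraries, and the 5 dendritic cell genes to 1.35, 1.201 and 3.15 CPM and to 1.79, 3.37 and 3.07 CPM. In these 3 lists CTL 94 was the highest control and lay within the LIP range. The 7 acinar genes of the pancreas reached 0.36 CPM at most in CTL and were at 0.138, 12.5 and 4.13 CPM in LIP 92, LIP 93 and LIP 94. The part of these genes in the AP-1 values was not tested.

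**Figure D2:**
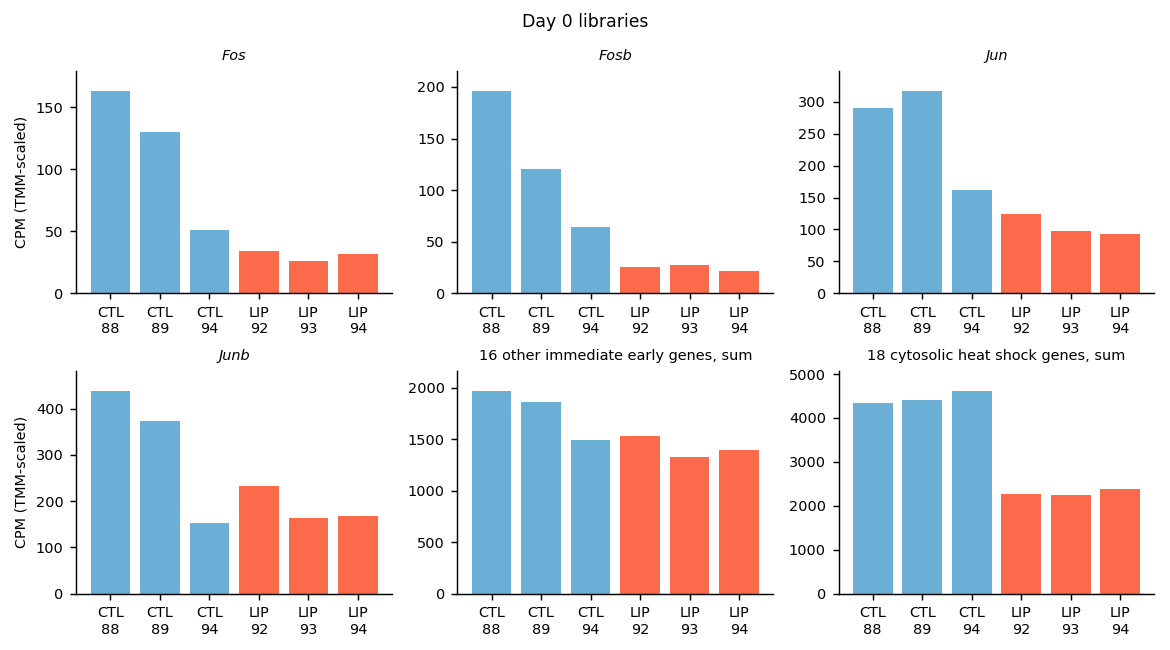
CPM in each of the 6 day 0 libraries (blue bars CTL, red bars LIP, axes from 0) for Fos, Fosb, Jun and Junb, for the sum of 16 other immediate early genes and for the sum of 18 heat shock genes. CTL 94 is the lowest control in the 4 AP-1 panels and in the immediate early sum, and the highest library in the heat shock sum at 4610 CPM.

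Over 2 days of culture the members went different ways. In both groups Fosl2 and Batf were higher on day 2, Fosl1 and Batf3 went from few or no counts to a measurable level, and Fos, Fosb and Jun were lower. With TMM scaling Junb and Maff were higher on day 2 in LIP, and Jund was near its day 0 level in both groups. By edgeR 4 of 10 members were called higher in CTL beside 35.3% of all genes, and 3 lower beside 33.7%. In LIP 6 members were called higher beside 36.6% of all genes and 3 lower beside 35.2%. Most of the 15475 genes tested thus changed with culture. Both contrasts use the day 0 libraries by which the members were chosen, and Fosl1 and Batf3 passed the filter only through day 2, so nothing is read from these counts. The values of the members over the 2 days are therefore given as a description, with no p.

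Among the Fos genes, Fosb had the lowest log2 fold change. It went from 127 ± 66.2 CPM to 4.96 ± 2.25 CPM in CTL (log2 fold change -4.67, SE 0.40) and from 24.9 ± 2.70 CPM to 1.59 ± 0.556 CPM in LIP (-3.91, SE 0.46), SD with n = 3 in each group. Fos went from 115 ± 57.7 CPM to 16.03 ± 2.51 CPM in CTL (-2.84, SE 0.32) and from 30.6 ± 4.18 CPM to 17.6 ± 1.14 CPM in LIP (-0.80, SE 0.31). The day 2 libraries of both groups lay below all day 0 libraries in Fos and in Fosb. With 1 library left out, the value of Fos in LIP ranged from -0.89 to -0.71.

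Fosl2 moved the other way. It measured 460 CPM in CTL 92, 431 CPM in CTL 93 and 255 CPM in CTL 97, and 413 CPM, 724 CPM and 682 CPM in LIP 90, LIP 96 and LIP 97. Each of these was several times the highest day 0 value of 54.0 CPM, and the log2 fold change was 3.18 in CTL (SE 0.30) and 4.49 in LIP (SE 0.32). Fosl1, which encodes Fra-1 and is itself a target of AP-1 in many cells, had no count in any of the 6 day 0 libraries. On day 2 it was at 10.3, 15.7 and 9.41 CPM in CTL 92, CTL 93 and CTL 97 and at 10.1, 11.1 and 10.5 CPM in LIP 90, LIP 96 and LIP 97. From summed counts, against a floor of 3 counts over the 3 day 0 libraries, it was at least 88.3-fold higher in CTL and at least 77.2-fold higher in LIP.

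The 3 Jun genes parted. Jun went from 256 ± 83.0 CPM to 22.7 ± 4.09 CPM in CTL (log2 fold change -3.50, SE 0.24) and from 105 ± 17.1 CPM to 20.5 ± 2.77 CPM in LIP (-2.36, SE 0.23). On day 2 its 6 libraries spanned only 17.4 to 27.4 CPM. Junb stood at 321 ± 150 CPM on day 0 and 278 ± 58.8 CPM on day 2 in CTL, a log2 difference of -0.21 with a 95% interval from -0.84 to 0.43. Without CTL 94 that difference was -0.51, and without CTL 88 it was 0.10. In LIP, Junb went from 188 ± 38.5 CPM to 352 ± 61.9 CPM (0.91, SE 0.30). Jund was at 119 ± 26.6 CPM and 107 ± 14.7 CPM on the 2 days in CTL and at 82.8 ± 9.06 CPM and 76.5 ± 15.4 CPM in LIP. Its log2 differences were -0.17 (95% interval -0.54 to 0.21) and -0.12 (-0.50 to 0.27).

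Batf and Batf3, which lack an activating domain and act with Jun proteins and IRF4, were both higher on day 2. Batf measured 49.8, 53.4 and 42.3 CPM in CTL 92, CTL 93 and CTL 97 and 55.8, 73.8 and 48.6 CPM in LIP 90, LIP 96 and LIP 97, against at most 17.1 CPM on day 0. Its log2 fold change was 1.75 in CTL (SE 0.22) and 2.06 in LIP (SE 0.22). Batf3, best known for the dendritic cells that depend on it, had 2 counts in the day 0 libraries, both in LIP 93. On day 2 it had 17 counts in CTL, at least 4.80-fold above a floor of 3 counts over the CTL day 0 libraries, and 57 counts in LIP, 21.1-fold above day 0 with an exact 95% counting interval from 5.57 to 178. Maff was at 5.12 ± 3.45 CPM and 5.75 ± 0.591 CPM in CTL (log2 difference 0.18, SE 0.39) and went from 2.25 ± 0.721 CPM to 6.55 ± 0.970 CPM in LIP (1.54, SE 0.42). The Maff difference in CTL was -0.19 without CTL 94, and -0.105 under upper-quartile scaling, which put the median of all genes at -0.31.

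**Figure D3:**
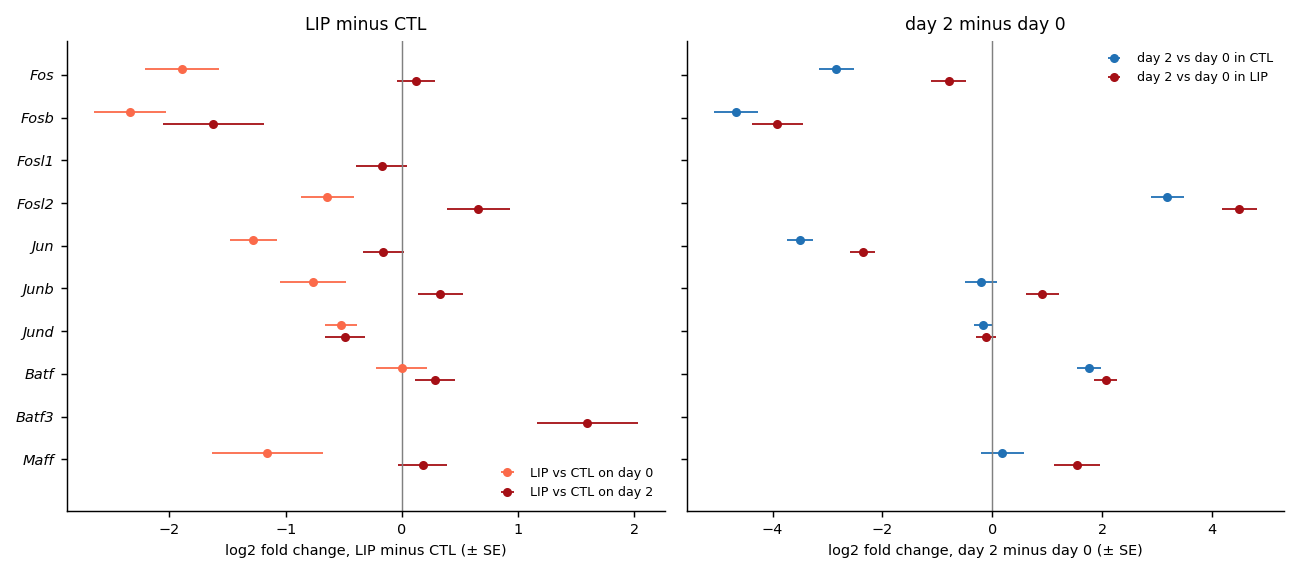
Fitted log2 fold change of each member with its SE, LIP minus CTL on day 0 and day 2 (left) and day 2 minus day 0 in CTL and LIP (right), each from 3 libraries a group. Fosl1 and Batf3 are left out on the right, and on day 0, because they were at or near 0 counts there. Fos, Fosb and Jun lie below 0 on the right, down to -4.67 for Fosb in CTL, and Fosl2 and Batf above 0.

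After 2 days of culture, 0 of the 10 members differed between LIP and CTL at an adjusted p under 0.05, as did 0% of the 14041 genes tested by edgeR. At an unadjusted p under 0.05 there were 4, Fosb and Jund lower and Fosl2 and Batf3 higher in LIP, beside 16.5% of all genes. Batf3 passed the filter on low counts only through the LIP libraries, where it was high. Fosb passed it only with the CTL libraries, where it was high, since LIP 97 held 8 counts. The place of both in these counts is no support. In Fosb, Jund and Batf3 the libraries of the 2 groups did not overlap, which held for 21.4% of all genes. DESeq2 called 1 member, Fosb, beside 3.45% of all genes. Without LIP 90 these 4 members were called, beside 13.9% of all genes. Leaving out CTL 92, CTL 93, CTL 97, LIP 96 or LIP 97 instead gave 0 calls among the members.

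Fosb was at 6.54, 5.96 and 2.38 CPM in CTL 92, CTL 93 and CTL 97 and at 2.15, 1.59 and 1.03 CPM in LIP 90, LIP 96 and LIP 97. The lowest CTL library was only slightly above the highest LIP library, and the counts behind them were few, from 8 to 62. The log2 difference of LIP from CTL was -1.62 (SE 0.43, edgeR unadjusted p = 0.00511, adjusted p = 0.15), and the adjusted p ranged from 0.0164 to 0.528 over the other settings. These values are a description, since Fosb passed the filter only with the CTL libraries. Without LIP 90 the log2 difference was -1.87 (edgeR adjusted p = 0.0346).

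Batf3 was at 0.949, 0.358 and 0.567 CPM in CTL 92, CTL 93 and CTL 97 and at 1.43, 2.15 and 2.33 CPM in LIP 90, LIP 96 and LIP 97, from 3 to 23 counts a library. The log2 difference was 1.60 (SE 0.43), and 1.81 without LIP 90, both given as a description. The 7 B cell markers summed to 3.69, 4.53 and 21.4 CPM in CTL 92, CTL 93 and CTL 97 and to 1.43, 34.8 and 32.3 CPM in LIP 90, LIP 96 and LIP 97. The highest control, CTL 97, had the lowest Fosl2 of its group, while LIP 90 was the lowest of its group in both. The 5 dendritic cell markers summed to 1.37, 0.596 and 0.680 CPM in CTL 92, CTL 93 and CTL 97 and to 0.626, 1.78 and 1.68 CPM in LIP 90, LIP 96 and LIP 97. These sums are of the size of the Batf3 values. Clec9a had no count on day 2, Xcr1 had counts in every day 2 library, and Flt3 was at 0.374 and 0.647 CPM in LIP 96 and LIP 97. The part of these cells in the Batf3 and Fosl2 values was not tested.

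Jund ranged from 96.6 to 123 CPM in CTL and from 60.4 to 91.1 CPM in LIP, a log2 difference of -0.49 (SE 0.17, edgeR unadjusted p = 0.0192, adjusted p = 0.218). Fosl2 overlapped between the groups because CTL 92 and CTL 93 lay above LIP 90, and its difference was 0.66 (SE 0.27, unadjusted p = 0.0405, edgeR adjusted p = 0.281). Without LIP 90 the adjusted p was 0.032 for Jund and 0.0242 for Fosl2. Without CTL 97 the differences were -0.53 for Jund (edgeR adjusted p = 0.26) and 0.44 for Fosl2 (edgeR adjusted p = 0.416). For Fos, the day 2 difference was 0.12 with a 95% interval from -0.25 to 0.49, and for Jun it was -0.16 with an interval from -0.56 to 0.24. An interval around 0 does not show equal levels. For Fosl1, Junb, Batf and Maff the day 2 differences were -0.17, 0.33, 0.28 and 0.18, each with an adjusted p above that of Fosl2.

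The difference of the LIP effect between the days was estimated in 1 fit over all 12 libraries and is given as a description, since it contains the day 0 values. It was 2.04 for Fos (SE 0.44), 1.36 for Maff (SE 0.57), 1.32 for Fosl2 (SE 0.41), 1.14 for Jun (SE 0.32) and 1.11 for Junb (SE 0.42), all on the log2 scale. A positive value means that LIP minus CTL was larger on day 2 than on day 0. It was 0.76 for Fosb (SE 0.66), 0.31 for Batf (SE 0.31) and 0.05 for Jund (SE 0.25). Fosl1 and Batf3 have too few day 0 counts for this estimate. By edgeR 0 members were called beside 0.0517% of all genes, 5 passed at an unadjusted p of 0.05 beside 15.9%, and DESeq2 called 3 beside 3.36%. Nothing is read from these counts.

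To set the members beside each other, CPM was divided by the mean annotated transcript length in kilobases. On this scale Junb had the highest mean of the 10 members in all 4 groups, at 258, 151, 224 and 283 CPM per kb in CTL day 0, LIP day 0, CTL day 2 and LIP day 2. Fos came next in CTL on day 0 at 105 ± 52.7 CPM per kb. Its range overlapped that of Junb, which was above it in each library, and those of Jun and Jund. In CTL 94 Fos, at 46.5 CPM per kb, lay below Jun at 50.6 and Jund at 54.3. In LIP on day 0 the next was Jund at 49.6 ± 5.43 CPM per kb, and Fos at 27.98 ± 3.82 overlapped Jun at 33.0 ± 5.37. On day 2 the next was Fosl2, at 91.6 ± 26.6 CPM per kb in CTL and 145 ± 40.5 in LIP. It was followed by Batf and Jund, whose ranges overlapped in CTL (56.1 to 70.9 and 58.0 to 74.1 CPM per kb) and not in LIP (64.6 to 98.0 and 36.2 to 54.6). The 2 lowest members on day 2 in CTL were Fosb at 1.36 ± 0.619 CPM per kb and Batf3 at 0.853 ± 0.410, with overlapping ranges, and in LIP Batf3 at 2.69 ± 0.649 and Fosb at 0.437 ± 0.153.

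As shares of the summed per-kilobase level, the Fos genes made up 21.8% to 28.5% in CTL and 13.5% to 14.6% in LIP on day 0, and 21.9% to 27.7% and 25.5% to 31.7% on day 2. The Fos share of CTL was thus similar on the 2 days, but its make-up was not. Fos and Fosb had mean shares of 17.3% and 5.86% on day 0 and of 3.04% and 0.273% on day 2, and Fosl2 went from 1.77% to 18.7%. The Batf genes held between 2.25% and 7.04% in CTL on day 0 and between 12.6% and 14.8% on day 2. In LIP they held between 3.75% and 8.19% on day 0 and between 10.5% and 15.9% on day 2. The Jun genes held most of the sum in all 12 libraries, from 51.8% to 82.3%, and on day 2 this was mainly Junb. The order of Fos in CTL on day 0 depends on its length: with the longest transcript of each gene, its mean share was 11.8%, below Jun at 18.6% and Jund at 17.3%. The order of Fosl2 in CTL on day 2 does too, since it then had 15.6%, below Jund at 18.6%.

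**Figure D4:**
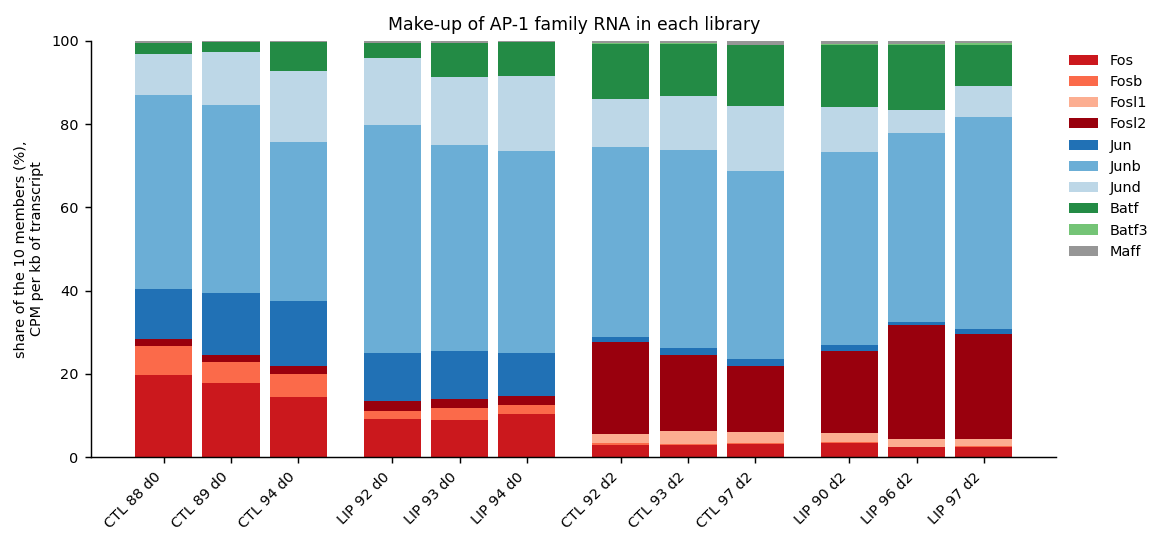
Share of each member in the summed CPM per kb of the 10 members, 1 bar for each of the 12 libraries, in percent from 0 to 100. The Fos and Fosb blocks of day 0 give way to Fosl2 on day 2, the Batf block is larger on day 2, and Junb is the largest block in every library.

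The partners and inputs of the family were read in the same fits, from lists chosen with earlier results known. Of all genes tested, 35.3% rose and 33.7% fell in CTL over the 2 days and 36.6% and 35.2% in LIP, and the counts of each list are to be read beside these shares. Of 13 other basic leucine zipper genes, 10 were tested, and 4 rose and 5 fell in CTL over the 2 days (4 and 4 in LIP), with a median of -0.26 beside -0.02 over all genes. Atf3, a stress-induced factor, stood at 0.171 ± 0.202 CPM on day 0 and 120 ± 13.5 CPM on day 2 in CTL, and it passed the filter only through day 2. Bach2, a repressor that competes for AP-1 sites in T cells, rose from 196 ± 9.77 CPM to 550 ± 30.2 CPM (log2 fold change 1.49, SE 0.14). Maf and Atf7 were the farthest down, at 1.02 and 0.89 below day 0 on the log2 scale.

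Of 21 genes of the MAP kinase route from the antigen receptor to AP-1, 6 rose and 3 fell in CTL and 8 rose and 5 fell in LIP, with medians of 0.07 and 0.15. Mapk3, which encodes ERK1, went from 16.6 ± 2.03 CPM to 47.0 ± 6.95 CPM in CTL, and Hras from 11.8 ± 1.53 CPM to 27.5 ± 2.48 CPM. Rasgrp1, the exchange factor that loads Ras in T cells, fell from 505 ± 55.5 CPM to 155 ± 17.1 CPM (log2 fold change -1.71, SE 0.11), and Prkcq, which encodes protein kinase C theta, from 494 ± 67.4 CPM to 293 ± 36.8 CPM. Between LIP and CTL on day 0, 0 of these 21 were called by edgeR beside 0.427% of all genes, 1 passed at an unadjusted p of 0.05 beside 13.9%, and their log2 differences lay between -0.18 and 0.24. Srf, which encodes the factor that binds the CArG box, was at 42.8 CPM in CTL and 41.0 CPM in LIP on that day.

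Among 6 partners at shared DNA elements, 3 rose and 2 fell in each group. Irf4, the partner of Batf, rose from 26.0 ± 6.05 CPM to 1729 ± 61.5 CPM in CTL and from 29.6 ± 3.15 CPM to 2170.0 ± 334 CPM in LIP, and Irf8 from 8.66 ± 3.80 CPM to 107 ± 26.6 CPM in CTL. Nfatc3 and Ets1 fell, by 0.69 and 0.74 on the log2 scale in CTL. On day 2, 0 of the 6 were called between LIP and CTL by edgeR and 2 passed at an unadjusted p of 0.05, beside 16.5% of all genes.

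Of 12 T cell genes with known AP-1 sites, 10 were tested, and 9 rose in CTL and 10 in LIP, with 0 falling. Il2, Il4, Il13 and Csf2 did not pass the filter among the day 0 libraries, so these counts are partly set by the filter. Il2, the growth factor of T cells, stood at 0.772 ± 0.407 CPM on day 0 and 62.5 ± 6.82 CPM on day 2 in CTL, and at 0.734 ± 0.174 CPM and 22.7 ± 20.1 CPM in LIP. Il13 had 12.9 ± 4.53 CPM on day 2 in CTL and 9.01 ± 1.76 CPM in LIP after at most 0.0400 CPM on average on day 0. Tnf rose by 1.80 in CTL (SE 0.11), and Csf2 was at 0.100 CPM on day 0 and 0.749 CPM on day 2. Cd69, an early activation marker chosen here after its values were seen, was the gene that did not pass in CTL. On day 0 it was at 299 ± 85.7 CPM in CTL and 160 ± 14.0 CPM in LIP, the only gene of this list with an adjusted p under 0.05 in that contrast. Of the 6 genes of this list tested there, 1 was lower and 3 were higher in LIP at an edgeR unadjusted p of 0.05. The 3 were Il2ra, Tnf and Gzmb, the share of all genes in either direction was 13.9%, and the median was 0.12 beside 0.01.

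The other immediate early genes went both ways. Of 16 tested over the 2 days, 8 rose and 6 fell in CTL and 8 rose and 4 fell in LIP, with medians of 0.80 and 1.00. Nr4a2 went from 1.103 ± 0.790 CPM to 48.7 ± 13.9 CPM in CTL and Ier3 from 0.282 ± 0.246 CPM to 5.91 ± 3.02 CPM, neither of which passed the filter among the day 0 libraries, while Dusp1 and Klf2 fell by 3.15 and 2.80 on the log2 scale. Nr4a1 rose over the 2 days in both groups (1.93 in CTL and 3.72 in LIP). Of 17 heat shock genes tested, 8 rose and 7 fell in CTL and 9 rose and 2 fell in LIP. Hspd1 and Hspe1, the mitochondrial chaperonin pair, rose by 1.90 and 1.41 in CTL, and Dnajb4 and Hspa1b fell by 1.79 and 1.74.

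Likeness to Fos was taken as the correlation of log2 CPM over the 6 day 0 libraries, which share 2 groups and 1 outlying control, so many genes follow the same order. Among the members, Jun and Fosb were the closest, at 0.975 and 0.97, in places 47 and 61 of 14064 genes, followed by Jund, Fosl2, Junb and Maff from 0.945 to 0.862, and Batf was at -0.19. The 5 genes nearest to Fos outside the family were Gm1604a, Tnfrsf19, Sik1, Jarid2 and Nr4a1, with correlations from 0.995 to 0.998. Of these Sik1, a salt-inducible kinase, was at 35.0 CPM in CTL and 14.1 CPM in LIP on average, while Jarid2 was at 142 CPM and 124 CPM. Likeness of pattern is thus not likeness of size.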

How the data were processed

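Strand-aware libraries depleted of ribosomal RNA were sequenced from 12 CD4+ T cell samples. Per the labels and the study's methods, the authors checked reads with FastQC 0.11.9, trimmed them with Trimmomatic (0.38 per the labels), and deposited expected counts per gene from RSEM 1.3.0 with Bowtie2 on GRCm39. Expected counts were rounded to whole numbers (73267 values were not whole). The deposited tables for each day also hold the authors' fold changes and p-values, which were not used. Only their gene symbols were read, and 2 columns of other samples were left out. Genes passed edgeR's filterByExpr, were normalized by TMM and were tested with the quasi-likelihood test of edgeR 4.0.16 in R 4.3.3, with Benjamini-Hochberg adjustment over all genes tested. Called means an adjusted p under 0.05. LIP and CTL were compared within the 6 libraries of each day, and the days and their interaction in 1 fit of all 12 libraries. Standard errors are the log2 fold change over the root of F. The tests recovered known changes in simulated data. DESeq2 1.42.0, other scalings and filters and leaving out each library were tried as alternatives. Promoters and lengths came from GENCODE M39 on GRCm39, and the promoter window was widened to 400 bases before the start after a shorter one had been looked at.

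The members, gene lists and tests were chosen with earlier results of these data known. The text names all 10 members, the 2 highest and 2 lowest called genes of each list in CTL over the 2 days, and the 5 genes most like Fos on day 0 (log2 of CPM plus 0.5), with others marked. The replicates are separately labelled samples, so p-values measure the spread between these 12 samples. Counting intervals and floors cover counting error only.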

Additional observations from a re-analysis of the deposited data

How the results depend on the processing

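The number of members called stayed within 1.5 times its main value under most alternatives. Exceptions on day 0 were 7 with no filter on low counts and a range of 0 to 7 when 1 library was left out (main 3). On day 2 the count was 1 with no filter and 1 with DESeq2, and 0 to 4 when 1 library was left out (main 0). For day 2 against day 0 in CTL it was 4 (main 7) when at least 10 counts were asked of every library, a filter that removes Fosb, Fosl1 and Batf3. The interaction gave 4 with no filter, 3 with DESeq2 and 0 to 2 when 1 library was left out (main 0). The whole table moved with those settings: on day 2, 662 genes were called with no filter, 485 with DESeq2 and 2014 without LIP 90. A fit of all 12 libraries called 775 genes on day 2 and 0 members.

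Upper-quartile scaling and library totals moved the median of all genes over the 2 days to -0.31 and -0.21 in CTL and to -0.32 and -0.36 in LIP. Relative to it Junb in LIP was at 0.91 under both. Not corrected for the shift, Junb in LIP was as low as 0.55 over the settings (main 0.91), and it was not called in every setting. The Maff difference in CTL, not corrected for that shift, was -0.105 and -0.003 (main 0.18). Jund, not corrected, was at -0.45 in CTL under upper-quartile scaling and as low as -0.48 in LIP, and was called lower. Relative to the median it was at -0.14 in CTL under upper-quartile scaling and -0.11 in LIP under library totals. Leaving out 1 library turned the sign of Fosl1 on day 2 (-0.31 to 0.087) and of 3 uncalled differences over the 2 days, those of Junb in CTL (-0.51 to 0.10, the former called without CTL 94), Maff in CTL (-0.19 to 0.80) and Jund in LIP (-0.26 to 0.041). It also turned Batf on day 0 (-0.16 to 0.21) and the interaction of Jund (-0.10 to 0.20). The interactions of Fosl1 and Batf3, with too few day 0 counts, are not given. With the longest transcript the median Fos family share was 19.8%, 11.2%, 19.8% and 25.0% in CTL day 0, LIP day 0, CTL day 2 and LIP day 2, the Jun family share 75.0% and 66.0% in CTL on day 0 and day 2, and the Batf share 14.6% in CTL on day 2. Library totals cannot change a share within a library.

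No paired analysis was possible because the groups compared share fewer than 2 replicate numbers. Depth limits Fosb, Batf3 and Fosl1 on day 2 and Maff on day 0, and groups of 3 are too small to single out a library by a test.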

Other observations

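On day 2, 3 of the 10 other basic leucine zipper genes tested passed at an unadjusted p of 0.05 between LIP and CTL, beside 16.5% of all genes, and none passed at an adjusted p of 0.05 by edgeR. Atf4, which drives the response to amino acid shortage, was at 153 ± 20.9 CPM in CTL and 377 ± 160 CPM in LIP (log2 difference 1.29, SE 0.31, edgeR adjusted p = 0.139), and Atf3, one of its targets, was at 120 ± 13.5 CPM and 199 ± 7.39 CPM (0.72, SE 0.12, adjusted p = 0.101). Bach2 was at 550 ± 30.2 CPM and 373 ± 75.6 CPM (-0.57, SE 0.16, edgeR adjusted p = 0.17), SD with n = 3.

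Of the 10 T cell genes with AP-1 sites tested on day 2, 4 were higher and 2 lower in LIP at an unadjusted p of 0.05, beside 16.5% of all genes in either direction, and none passed at an adjusted p of 0.05 by edgeR. Gzmb, a cytotoxic granule protease, was at 64.4 ± 10.8 CPM in CTL and 133 ± 21.4 CPM in LIP (edgeR adjusted p = 0.0997). Il4 was at 8.52 ± 1.06 CPM and 17.2 ± 9.74 CPM (edgeR adjusted p = 0.224), and Il21 at 35.8 ± 27.3 CPM and 136 ± 146 CPM (adjusted p = 0.284). Csf2, which passed the filter only through LIP, was at 0.749 ± 0.0403 CPM and 1.95 ± 0.516 CPM. Il2 was at 62.5 ± 6.82 CPM in CTL and 22.7 ± 20.1 CPM in LIP (edgeR adjusted p = 0.24), and Ifng at 28.5 ± 12.2 CPM and 13.3 ± 7.31 CPM (adjusted p = 0.248). The genes of both lists named here were picked after their values were seen.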
